A study of Homo sapiens with 6 samples.

Results

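The aldo-keto reductases described here are 8 genes, AKR1A1, AKR1B1, AKR1B10, AKR1C1, AKR1C2, AKR1C3, AKR7A2 and AKR7A3, chosen by gene symbol from the 32192 genes of the count table. Aldo-keto reductases are cytosolic enzymes that use NADPH to reduce aldehydes and ketones to alcohols. AKR1A1, AKR1B1, AKR1B10 and the AKR7A enzymes act mainly on sugars and reactive aldehydes, while the AKR1C enzymes act mainly on steroids and prostaglandins. Several members are known targets of NRF2 (NFE2L2), the transcription factor of the antioxidant response, and A549 cells are known for an inactivating mutation of KEAP1, the inhibitor of NRF2.

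A549 is an established human cell line from a lung adenocarcinoma. Messenger RNA was sequenced from 3 APEX1-OE libraries, transiently transfected with the pIRES-hrGFP-1a plasmid carrying APEX1, and from 3 Ctrl libraries, transfected with the control plasmid. APEX1 is the endonuclease of base excision repair, and the comparison asks which transcripts differ when more of it is made. No label says that the 3 libraries of a group came from separate cultures, so p-values measure the spread between these libraries, which may be technical.

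Total counts lay between 28131955 and 41009197 per library, and members took 1.21% to 1.42% of them. APEX1 was the only gene called in the test of all 16971 genes that passed the filter on low counts (log2 fold change 2.42, SE 0.17, edgeR adjusted p = 0.00809, higher in 3 of 3 APEX1-OE libraries). Epithelial keratins and EPCAM summed to 6187 to 9211 FPKM per library, and the markers of immune, endothelial and stromal cells to 0.52 to 0.78 FPKM. The keratins made up nearly all of the epithelial sum, and EPCAM itself had only 0.18 to 0.52 FPKM. The libraries also stood apart in a way that the labels do not give. CPM are counts scaled to a common library size after TMM normalization. Along the first principal component of log2 CPM, with 72.6% of the variance, Ctrl replicates 1 and 2 lay with APEX1-OE replicate 1, called side A, and Ctrl replicate 3 with APEX1-OE replicates 2 and 3, called side B. Genes of low GC content were higher on side B and genes of high GC content were higher on side A. The comparison of the members is therefore given without and with the library side.

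AKR1C1 and AKR1C2 are so alike that some short reads cannot tell them apart, which limits the values of these genes. The genes lie next to each other in a cluster on chromosome 10 of GRCh38. AKR1C1 (ENSG00000187134.12) spans chr10:4963253-4983283 on the plus strand, AKR1C2 (ENSG00000151632.16) chr10:4987775-5018031 on the minus strand and AKR1C3 (ENSG00000196139.11) chr10:5035354-5107686 on the plus strand. The coding sequences of AKR1C1 and AKR1C2 differed at 19 of 969 bases, an identity of 98.0%, and 10 of these bases fell in coding exon 2. Coding exon 2 is shown as the coding exon with the most differing bases, all of them in its first part. Coding exon 7, with 1 differing base in 166, is shown as an exon that is nearly the same in both genes. Capitals mark the bases that differ between both genes, 5′ to 3′ along each gene.
AKR1C1 coding exon 2 at chr10:4965914-4966081, plus strand: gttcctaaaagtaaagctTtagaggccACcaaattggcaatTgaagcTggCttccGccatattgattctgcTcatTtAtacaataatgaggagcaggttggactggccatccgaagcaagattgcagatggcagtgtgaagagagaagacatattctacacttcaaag
AKR1C2 coding exon 2 at chr10:5001514-5001681, minus strand: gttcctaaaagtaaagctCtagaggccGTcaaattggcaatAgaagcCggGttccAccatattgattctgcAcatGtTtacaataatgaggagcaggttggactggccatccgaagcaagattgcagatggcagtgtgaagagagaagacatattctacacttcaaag
AKR1C1 coding exon 7 at chr10:4972584-4972749, plus strand: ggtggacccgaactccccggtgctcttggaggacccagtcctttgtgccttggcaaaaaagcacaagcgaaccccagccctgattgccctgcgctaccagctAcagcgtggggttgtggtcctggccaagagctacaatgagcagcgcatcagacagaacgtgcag
AKR1C2 coding exon 7 at chr10:4995319-4995484, minus strand: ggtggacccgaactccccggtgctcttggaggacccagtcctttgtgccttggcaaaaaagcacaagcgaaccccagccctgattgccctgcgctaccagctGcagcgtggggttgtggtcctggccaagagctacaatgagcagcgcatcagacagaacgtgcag

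Of all windows of 150 bases, the read length, along the reference transcript of AKR1C2, 17.2% were identical to a stretch of another aldo-keto reductase transcript and 53.0% matched one within the 4 mismatches that the alignment allowed. For AKR1C1 these shares were 7.91% and 25.6%, and for AKR1C3 2.12% and 9.45%. AKR1B10 had no identical window, but 19.3% of its windows matched AKR1B15 within 4 mismatches. AKR7A3 had 6.38% of windows identical to AKR7L, and AKR7A2 had 13.2% of windows within 4 mismatches of a relative. AKR1A1 and AKR1B1 had none within 4 mismatches of any other AKR1 or AKR7 gene of the count table. Sequence elsewhere in the genome was not searched. The authors used uniquely mapped reads, so levels of AKR1C1, AKR1C2, AKR1C3, AKR1B10, AKR7A2 and AKR7A3 are uncertain to the extent that reads were dropped or assigned to a relative.

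AKR1B1 (ENSG00000085662.13, chr7:134442356-134459284, minus strand) encodes aldose reductase, which turns glucose into sorbitol in the polyol pathway. It had the highest level of the family and ranked 5 by mean FPKM among the 31951 genes of the FPKM table. FPKM are fragments scaled by transcript length and by library size, so levels of different genes can be set side by side. Values are given in the order of replicates 1, 2 and 3. AKR1B1 stood at 4043, 3676 and 3883 FPKM in the APEX1-OE libraries and at 4312, 4126 and 3390.3 FPKM in the Ctrl libraries. In FPKM, the range of the Ctrl libraries enclosed that of the APEX1-OE libraries. In CPM, APEX1-OE replicate 1 (7858) was above the highest Ctrl library, replicate 1 (7697). AKR1B1 alone took 45.2% to 58.9% of all counts of the 8 members.

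AKR1B10 (ENSG00000198074.9, chr7:134527567-134541412, plus strand) encodes a reductase of retinal and of aliphatic aldehydes and is known for high levels in lung cancers of smokers. It stood at 461, 678 and 856 FPKM in APEX1-OE and at 811, 780.05 and 827.5 FPKM in Ctrl. In FPKM, APEX1-OE replicate 1 was far below the other libraries, APEX1-OE replicate 2 was below the 3 Ctrl libraries, and APEX1-OE replicate 3 was above them. In CPM, APEX1-OE replicate 3 (1543) was below Ctrl replicates 1 (1633) and 2 (1597). AKR1B10 had 0.129 counts per AKR1B1 count in APEX1-OE replicate 1, against 0.208 to 0.275 in the other 5 libraries.

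AKR1C3, which makes testosterone from androstenedione and reduces prostaglandins, was the highest of the AKR1C genes in FPKM. Its FPKM were 437, 492 and 585 in APEX1-OE and 589, 520.1 and 598 in Ctrl. AKR1C2, which inactivates dihydrotestosterone, stood at 304, 368 and 449 FPKM in APEX1-OE and at 417, 408 and 432 FPKM in Ctrl. AKR1C1, which inactivates progesterone, stood at 108, 121 and 185 FPKM in APEX1-OE and at 143, 153 and 151 FPKM in Ctrl. In all 3 AKR1C genes, APEX1-OE replicates 1 and 2 were the lowest libraries, and for AKR1C1 and AKR1C2 APEX1-OE replicate 3 was the highest in FPKM. In CPM this held for AKR1C1, while AKR1C2 in APEX1-OE replicate 3 (2313) was below Ctrl replicates 1 (2403) and 2 (2391). The ratio of AKR1C1 to AKR1C2 counts lay between 0.516 and 0.646, with its lowest value in APEX1-OE replicate 2 and its highest in APEX1-OE replicate 3.

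AKR1A1 (ENSG00000117448.13, chr1:45550543-45570049, plus strand) encodes aldehyde reductase, which acts on glucuronate, and AKR7A2 (ENSG00000053371.12, chr1:19303965-19312144, minus strand) a reductase of succinic semialdehyde. AKR1A1 stood at 28.9, 21.4 and 23.1 FPKM in APEX1-OE and at 29.7, 29.4 and 21.1 FPKM in Ctrl. AKR7A2 stood at 19.1, 13.7 and 15.8 FPKM in APEX1-OE and at 19.8, 20.02 and 13.2 FPKM in Ctrl. In both genes, the 3 libraries of side A were above the 3 libraries of side B, whichever plasmid they carried. AKR7A3 (ENSG00000162482.4, chr1:19282573-19288770, minus strand), a relative of AKR7A2 that reduces aflatoxin dialdehyde, had 5, 7 and 8 counts in APEX1-OE and 6, 11 and 17 counts in Ctrl. It did not pass the filter on low counts, which leaves 7 members tested.

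**Figure D1:**
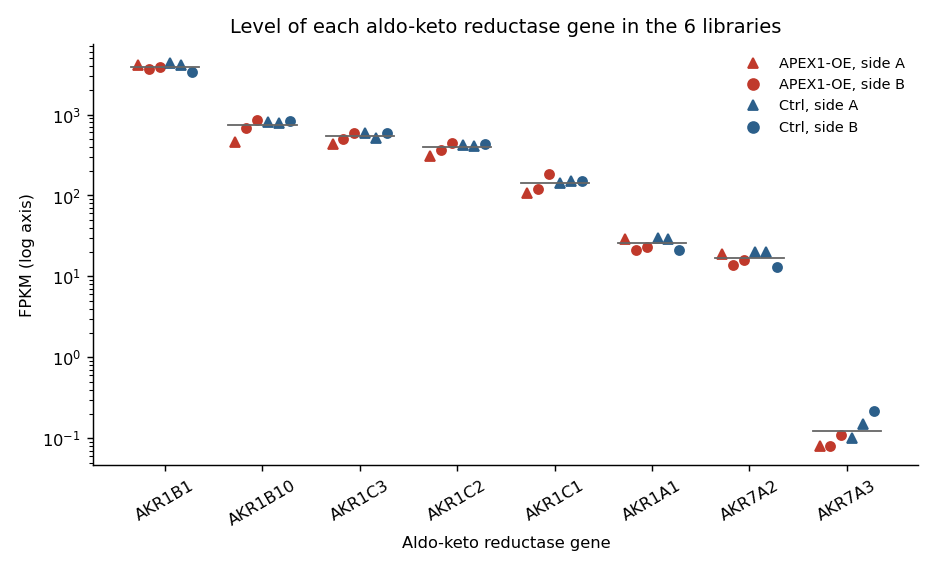
Each point is the FPKM of a gene in 1 library on a log axis, in red for APEX1-OE and blue for Ctrl, with triangles for library side A and circles for side B, and the grey line is the mean over 6 libraries. AKR1B1 lies near 3905 FPKM, AKR1B10 and the AKR1C genes between 108 and 856 FPKM, AKR1A1 and AKR7A2 between 13.2 and 29.7 FPKM, and AKR7A3 at 0.22 FPKM or less.

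The order by mean FPKM was AKR1B1, AKR1B10, AKR1C3, AKR1C2, AKR1C1, AKR1A1, AKR7A2 and AKR7A3. Each gene was above its next neighbour in 6 of 6 libraries. An exact two-sided permutation test by sign flips of the 6 library differences gave p = 0.03125 for each of the 7 pairs (adjusted p = 0.03125). This is the smallest p that 6 libraries allow. The order was set by the same values that were tested, so the test gives it no separate support. The smallest step was from AKR1B10 to AKR1C3, with a mean difference of 0.43 ± 0.18 on the log2(FPKM + 0.1) scale (SD, n = 6), and the ranges of these 2 genes over the libraries overlapped. AKR1C3 and AKR1C2, at 0.44 ± 0.07 apart (SD, n = 6), also had overlapping ranges. The order among these 3 genes depends on the length assigned to each. Per kilobase of all annotated exons, AKR1C3 exceeded AKR1C2 in 5 of 6 libraries (exact p = 0.0625). Per kilobase of the reference (MANE Select) transcript, AKR1C3 was above AKR1B10 in 6 of 6 libraries, a length chosen after the data were seen.

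Between the plasmids, no member passed the test. In bulk RNA of a transfected culture, fewer cells that express a gene and less of its RNA per cell cannot be told apart. Of the 7 members tested with edgeR's quasi-likelihood test, 0 had an adjusted p under 0.05, against 0.00589% of all genes tested, and 0 had an unadjusted p under 0.05, against 0.695% of all genes tested. DESeq2 also called 0 members, and 0 had an unadjusted p under 0.05. The log2 fold change of APEX1-OE over Ctrl was below 0 for 7 of 7 members, with a median of -0.15, while the median over all genes tested was 0.03 and 42.5% of them lay below 0. The members share libraries, and the AKR1C genes share sequence, so these 7 values are not independent.

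AKR1B10 had the log2 fold change farthest from 0, at -0.32 (SE 0.20, edgeR unadjusted p = 0.145, adjusted p = 1.0). Its mean was 1270.4 ± 266 CPM with the APEX1 plasmid and 1583 ± 57.7 CPM with the control plasmid (SD, n = 3 each). The 3 values were 1011, 1258 and 1543 CPM against 1633, 1597 and 1520 CPM. The spread within APEX1-OE was thus several times that within Ctrl, and the values overlapped.

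Of the 7 members tested, AKR1C3 was the 1 whose groups did not overlap in CPM, while 2.01% of all genes tested had all APEX1-OE libraries below all Ctrl libraries. It stood at 1374, 1307 and 1509 CPM in APEX1-OE and at 1698, 1525 and 1573 CPM in Ctrl (p = 0.1 in an exact two-sided permutation test, which cannot go lower with 3 libraries in each group). The gap between both groups was small beside their ranges, and in FPKM the groups overlapped. AKR7A3, at 5 to 17 counts per library, was also separate in CPM, with 0.165 to 0.215 CPM in APEX1-OE and 0.223 to 0.433 CPM in Ctrl, but it overlapped in counts and in FPKM and was not tested. The edgeR log2 fold change of AKR1C3 was -0.19 (SE 0.16, adjusted p = 1.0).

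AKR1C2 had 2056 ± 224 CPM with the APEX1 plasmid and 2354 ± 74.7 CPM with the control plasmid (SD, n = 3 each), a log2 fold change of -0.20 (SE 0.16, edgeR adjusted p = 1.0). AKR1C1 stood at 1067, 1007 and 1496 CPM in the APEX1-OE libraries and at 1295, 1407 and 1247 CPM in the Ctrl libraries, a log2 fold change of -0.15 (SE 0.20, edgeR adjusted p = 1.0). For AKR1C1 and AKR1C2, the Ctrl libraries were more alike than the APEX1-OE libraries. When the counts of AKR1C1, AKR1C2 and AKR1C3 were summed into 1 row, which removes reads exchanged among them, the log2 fold change was -0.18 (SE 0.17, edgeR adjusted p = 1.0).

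AKR1B1 had a log2 fold change of -0.04 (SE 0.20), AKR1A1 one of -0.13 (SE 0.27) and AKR7A2 one of -0.14 (SE 0.30), each with an edgeR adjusted p of 1.0. The standard errors of the 7 members lay between 0.16 and 0.30, and for 4 of them (AKR1A1, AKR1B1, AKR1C1 and AKR7A2) the standard error was larger than the difference itself. A p that misses the threshold does not show that levels were the same.

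The 7 members fell into 2 patterns over the libraries. AKR1A1, AKR1B1 and AKR7A2 followed the library side. AKR1A1 had 95.2, 89.7 and 90.3 CPM in the side A libraries (APEX1-OE replicate 1, Ctrl replicates 1 and 2) and 59.6, 62.4 and 58.2 CPM in the side B libraries (APEX1-OE replicates 2 and 3, Ctrl replicate 3). AKR7A2 had 35.8, 34.2 and 35.1 CPM on side A and 21.8, 24.3 and 20.8 CPM on side B. AKR1B1 had 7858, 7697 and 7487 CPM on side A and 6045, 6203 and 5518 CPM on side B. In each of these 3 genes the sides did not overlap, and within a side APEX1-OE exceeded Ctrl by 0.05 to 0.15 in log2 CPM. The sides were set from these same counts, and the share of all genes whose sides do not overlap was not counted. In mean log2 CPM of side B minus side A, AKR1A1, AKR1B1 and AKR7A2 lay at percentiles 12.5, 28.0 and 9.72 of all genes tested.

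AKR1B10, AKR1C1, AKR1C2 and AKR1C3 did not separate by side. AKR1B10 had 1011, 1633 and 1597 CPM on side A, in the same order of libraries, and 1258, 1543 and 1520 CPM on side B. AKR1C2 had 1904, 2403 and 2391 CPM on side A and 1951, 2313 and 2268 CPM on side B. In these 4 genes APEX1-OE replicate 1 was the lowest library of side A and APEX1-OE replicate 2 the lowest of side B. The mean log2 CPM of side B minus side A was 0.05 for AKR1B10, -0.02 for AKR1C1, -0.03 for AKR1C2 and -0.07 for AKR1C3, against -0.61 for AKR1A1, -0.38 for AKR1B1 and -0.65 for AKR7A2.

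**Figure D2:**
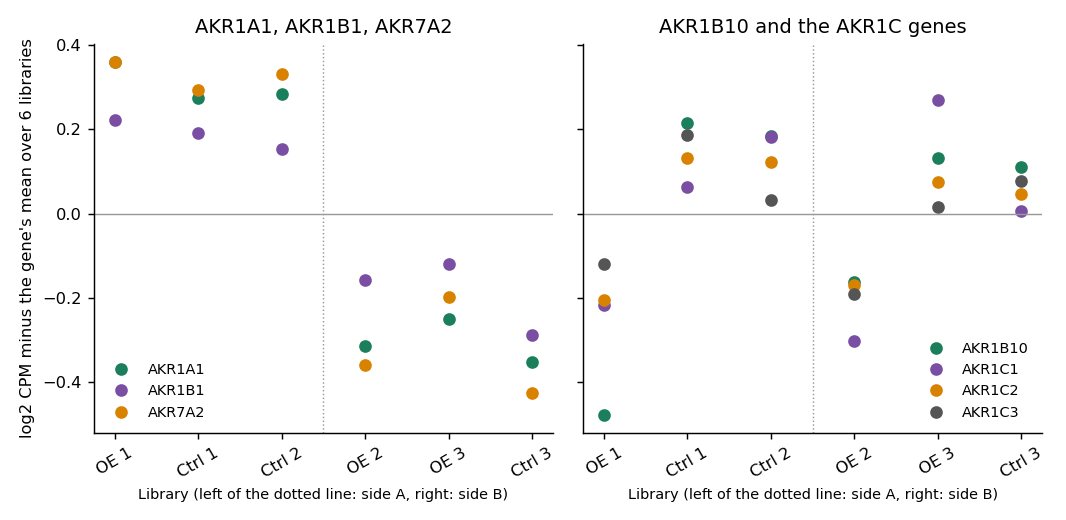
Points show the log2 CPM of each gene minus its mean over the 6 libraries, with side A libraries left of the dotted line and side B libraries right of it. AKR1A1, AKR1B1 and AKR7A2 are above 0 in all side A libraries and below 0 in all side B libraries, whereas AKR1B10 and the AKR1C genes are below 0 in APEX1-OE replicates 1 and 2.

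GC content moved with this division, and its part in the result was not tested. The exons of AKR1A1, AKR1B1 and AKR7A2 had a GC content of 54.3%, 53.8% and 60.0%, and those of AKR1B10, AKR1C1, AKR1C2 and AKR1C3 one of 48.0%, 41.5%, 42.1% and 43.3%. When the genes with a GC value were split into 3 equal parts, the median of side B minus side A in log2 CPM was 0.74 in the part of lowest GC content, 0.04 in the middle and -0.51 in the part of highest GC content. Within their own part, AKR1A1, AKR1B1 and AKR7A2 lay at percentiles 33.6, 15.6 and 26.4 of the side difference, and AKR1B10 at percentile 51.7. The AKR1C genes stood at percentiles 6.66 (AKR1C1), 6.11 (AKR1C2) and 5.28 (AKR1C3) of the part of lowest GC content. Most genes as poor in GC as the AKR1C genes were higher on side B, and the AKR1C genes were not.

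**Figure D3:**
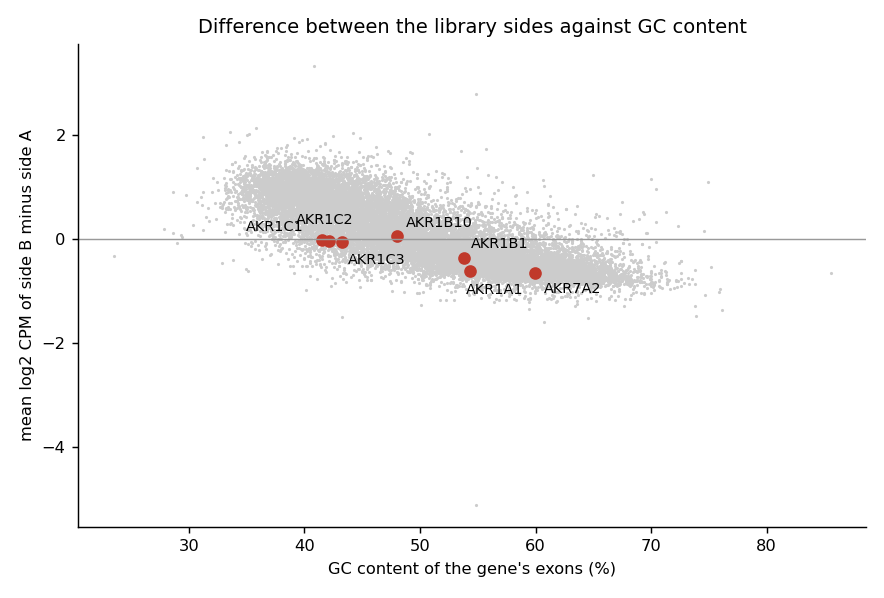
Each grey point is a tested gene, with the GC content of its exons in percent against its mean log2 CPM on side B minus side A, and the members are in red. AKR1C1, AKR1C2 and AKR1C3 lie near 0 at a GC content of 41.5% to 43.3%, at the lower edge of genes with that content, while AKR1A1 and AKR7A2 lie among the other genes at -0.61 and -0.65.

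With the library side as a term in the edgeR fit, the standard errors of the members were smaller and the members divided by direction. The side was taken from these same counts, so the p-values of this fit may be too small. At an unadjusted p under 0.05 it had 1973 genes, against 118 with the condition only. Again 0 of 7 members had an adjusted p under 0.05, against 0.0236% of all genes tested. At an unadjusted p under 0.05, 3 of 7 members were lower in APEX1-OE, against 3.02% of all genes tested, and 0 were higher, against 8.61%. AKR1B10 had a log2 fold change of -0.40 (SE 0.12, unadjusted p = 0.00503, edgeR adjusted p = 0.356). AKR1C2 had -0.21 (SE 0.09, unadjusted p = 0.0385, edgeR adjusted p = 0.407) and AKR1C3 -0.20 (SE 0.09, unadjusted p = 0.0433, edgeR adjusted p = 0.414). AKR1C1 had -0.17 (SE 0.13, edgeR adjusted p = 0.639), and the 3 AKR1C genes as 1 row had -0.19 (SE 0.10, edgeR adjusted p = 0.447). AKR1A1, AKR1B1 and AKR7A2 had log2 fold changes of 0.08, 0.10 and 0.10, the opposite direction to that without the term.

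In mean log2 CPM, each of the 7 members had the same direction on side A as on side B. AKR1A1, AKR1B1 and AKR7A2 were above Ctrl in APEX1-OE, and the other 4 were below. The share of all genes with the same direction on both sides was not counted, so this gives the members no separate support. On side B, Ctrl replicate 3 lay between APEX1-OE replicates 2 and 3 in CPM for AKR1B10, AKR1C1 and AKR1C2. AKR1B10 in APEX1-OE was 0.68 below Ctrl in log2 CPM on side A and 0.13 below on side B, and AKR1C1 was 0.34 below on side A and 0.02 below on side B. AKR1C2 was 0.33 and 0.09 below, and AKR1C3 0.23 and 0.16 below. Side A holds 1 APEX1-OE library and side B 1 Ctrl library, so the difference between the sides was not tested.

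These values rest on few libraries. Without APEX1-OE replicate 1, side A holds no APEX1-OE library, so the fit with the library side compares APEX1-OE replicates 2 and 3 with Ctrl replicate 3 alone and assumes that this library varies like the others. AKR1B10 then had a log2 fold change of -0.15 and 0 members had an unadjusted p under 0.05 in the lower direction, against 2.02% of all genes tested. Without APEX1-OE replicate 3, AKR1B10 (-0.50), AKR1C1 (-0.33), AKR1C2 (-0.28) and AKR1C3 (-0.25) were called lower, 4 of 7 members at an edgeR adjusted p under 0.05, against 5.36% of all genes tested. That fit called 2864 of 17214 genes in either direction, against 4 of 16971 with all 6 libraries. The calls of these 4 members occurred in that fit only. APEX1-OE replicate 3 is the library of that group with the highest levels of AKR1B10 and the AKR1C genes. Without Ctrl replicate 3, side B holds no Ctrl library and the fit compares APEX1-OE replicate 1 alone with Ctrl replicates 1 and 2. AKR1B10 then stood at -0.68, AKR1C1 at -0.34, AKR1C2 at -0.33 and AKR1C3 at -0.23, and 0 members were called. Without APEX1-OE replicate 2, AKR1C1 stood at -0.08, and without it, Ctrl replicate 1 or Ctrl replicate 2 in turn, AKR1B10 lay between -0.37 and -0.36. Leaving out libraries in this fit was chosen after the data were seen.

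**Figure D4:**
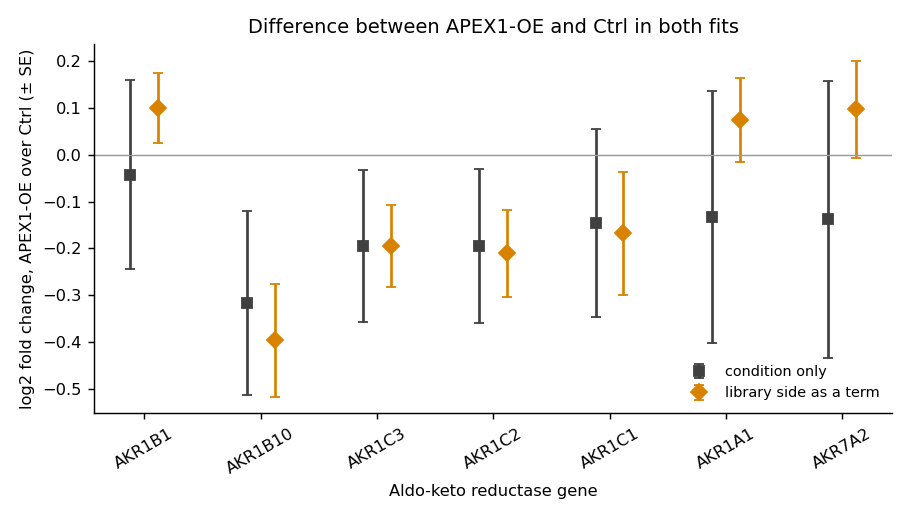
The log2 fold change of APEX1-OE over Ctrl with its SE is shown for the 7 members tested, in grey squares with the condition only and in orange diamonds with the library side as a term. AKR1B10 and the 3 AKR1C genes lie below 0 in both fits, and AKR1A1, AKR1B1 and AKR7A2 lie below 0 in the first fit and above 0 in the second, with no member passing an adjusted p of 0.05 in either.

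Genes whose pattern over the 6 libraries was most like that of AKR1C1 and AKR1B10 were found by the root mean square difference in log2 CPM after each gene's mean was subtracted, among 16970 other genes. For AKR1C1 they were TM4SF4 (0.03), CLDN2 (0.04) and DNAJC19 (0.05). For AKR1B10 they were DNAJB13 (0.04), PON3 (0.04) and ACAT2 (0.05). AKR1C2 ranked 52 for AKR1C1, at a difference of 0.10, and AKR1C2 ranked 128 for AKR1B10, at 0.12. For AKR1C3 the gene AKR1C2 ranked 38, at 0.06, and for AKR7A2 the gene AKR1A1 ranked 14, at 0.05. Each library contributes to every one of these patterns, and 6 libraries leave many genes close together.

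The RefSeq promoter windows (GRCh38.p14, 250 bases before the start site and 50 after it) matched 7 of the 8 members, and AKR1B10 had no entry. Before the start site, GC content was 40.8% in AKR1C1, 40.0% in AKR1C2 and 32.0% to 35.6% in the 2 windows of AKR1C3, against 60.4% in AKR1A1, 50.8% to 68.0% in AKR1B1, 67.2% in AKR7A3 and 78.8% to 79.2% in AKR7A2. The windows of AKR1C1 and AKR1C2 were 98.6% identical over 292 aligned bases. The promoters of AKR1C1 and AKR7A2 are shown up to the start site because these genes stand for the 2 patterns. Capitals mark GC boxes (GGGCGG) and the core of the antioxidant response element (TGACNNNGC), the site that NRF2 is known to bind, on either strand.
AKR1C1 promoter at chr10:4963165-4963414, plus strand: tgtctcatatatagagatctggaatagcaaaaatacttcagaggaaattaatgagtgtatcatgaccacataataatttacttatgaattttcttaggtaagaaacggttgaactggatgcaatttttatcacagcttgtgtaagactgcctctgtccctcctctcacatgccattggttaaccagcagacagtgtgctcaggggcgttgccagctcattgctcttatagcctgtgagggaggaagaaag
AKR7A2 promoter at chr1:19312147-19312396, minus strand: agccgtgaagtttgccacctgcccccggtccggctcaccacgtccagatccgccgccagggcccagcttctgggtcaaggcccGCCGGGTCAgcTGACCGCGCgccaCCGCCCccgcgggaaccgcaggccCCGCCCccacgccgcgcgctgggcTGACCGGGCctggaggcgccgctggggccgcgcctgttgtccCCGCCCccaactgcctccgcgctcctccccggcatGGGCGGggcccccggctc

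The antioxidant response element core occurred in the window of AKR7A2 only, at 3 places, beginning 167, 156 and 95 bases before the start site, and in 13.3% of the 35097 promoter windows of the table. GC boxes were found in the windows of AKR1A1, AKR1B1, AKR7A2 and AKR7A3 and in 44.9% of all windows, but in none of the AKR1C windows. TATAAA occurred in AKR1C3 (11.5% of all windows) and the E-box CACGTG in AKR1A1 (7.25%), while TGANTCA, the AP-1 site (7.71%), was in no member's window. A match is only a description of the letters, and no match says only that these letters are not in this window.

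Other aldo-keto reductase genes were far lower than the leading members. AKR1B15, the neighbour of AKR1B10, had 183 to 473 counts per library, 6.20 to 7.93 for every 1000 counts of AKR1B10, and its log2 fold change was -0.32 (SE 0.24, edgeR adjusted p = 1.0). With the library side as a term it was -0.44 (SE 0.13, unadjusted p = 0.00559, edgeR adjusted p = 0.356). AKR1C4, the liver member of the cluster, had 27 to 53 counts per library, and its groups overlapped in counts and in FPKM. In CPM all its APEX1-OE libraries lay below all Ctrl libraries, as for 2.01% of all genes tested. Its log2 fold change was -0.43 (SE 0.26, edgeR adjusted p = 1.0), and -0.41 with the library side (SE 0.25, edgeR adjusted p = 0.541). Their nearness in sequence to AKR1B10 and the AKR1C genes means that assigned reads may come from those genes, which was not tested. AKR1E2 had 3.17 to 4.16 FPKM. AKR1D1, the steroid reductase of bile acid synthesis, had 1 to 5 counts per library, and AKR7L had 0 to 6. Of the potassium channel subunits of the same superfamily, KCNAB2 had 3.10 to 4.16 FPKM, KCNAB3 0.24 to 0.45 FPKM and KCNAB1 at most 0.02 FPKM.

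NRF2 and its partners did not pass the test. NFE2L2 itself had 3.06 to 9.06 FPKM, with a log2 fold change of 0.30 (SE 0.39, edgeR adjusted p = 1.0), and its level followed the library side, with 503 to 816 counts in the side A libraries and 1615 to 1731 in the side B libraries. KEAP1, which directs NRF2 to degradation, had 17.9 to 24.4 FPKM (log2 fold change 0.01, SE 0.24). BACH1, a repressor at the same sites, had 0.90 to 3.19 FPKM (0.47, SE 0.45), and MAFG, the partner of NRF2 on DNA, 17.8 to 22.3 FPKM (0.11, SE 0.21). Of the 9 regulators of NRF2 tested, 0 were called and their median log2 fold change was 0.13, where that of all genes tested was 0.03. With the library side as a term, 3 of 9 were higher at an unadjusted p under 0.05, against 8.61% of all genes tested, and 0 were lower. They were MAFF (0.72, edgeR adjusted p = 0.181), MAFK (0.29, edgeR adjusted p = 0.412) and SQSTM1 (0.32, edgeR adjusted p = 0.380), of which MAFF is named after its values were seen. NFE2L2, KEAP1, BACH1 and MAFG had -0.07, 0.16, 0.04 and 0.21 in that fit, with edgeR adjusted p from 0.439 to 0.940. The highest regulators by mean FPKM were SQSTM1, an adaptor that binds KEAP1 (621 FPKM), MAFK (54.9 FPKM) and RBX1 (37.5 FPKM).

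Known NRF2 targets outside the family gave no more than the members did. Of 30 targets tested, 0 were called, and the median log2 fold change was -0.07, with a range from -0.18 to 0.40. The highest were the ferritin chains FTL (6573 FPKM) and FTH1 (4056 FPKM) and the aldehyde dehydrogenase ALDH3A1 (1312 FPKM). NQO1, the quinone reductase often read as the marker of NRF2 activity, had 416 ± 14.3 FPKM with the APEX1 plasmid and 460.1 ± 29.0 FPKM with the control plasmid (SD, n = 3 each), with a log2 fold change of -0.17 (SE 0.17, edgeR adjusted p = 1.0). It is named after its values were seen. With the library side as a term, 4 of the 30 targets were lower (GCLC, ABCC2, PIR and PTGR1) and 2 higher (HMOX1 and OSGIN1) at an unadjusted p under 0.05, against 3.02% and 8.61% of all genes tested, and 0 were called. These 6 are named after their values were seen.

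Other enzymes of the members' substrates were described in the same way. Of 15 other carbonyl reductases tested, 0 were called (median log2 fold change -0.09), and the highest were DHRS3 (91.8 FPKM), GRHPR (77.1 FPKM) and CBR1 (62.8 FPKM). Of 9 genes of the polyol and glucuronate pathways, in which AKR1B1 and AKR1A1 act, 0 were called (median 0.02), with UGDH (70.8 FPKM), DCXR (43.0 FPKM) and HK1 (35.1 FPKM) the highest. SORD, which oxidizes the sorbitol made by AKR1B1, had 5.32 to 8.26 FPKM, far below AKR1B1, and is named after its values were seen.

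Among genes of steroid metabolism, where the AKR1C enzymes act, 19 were tested and 0 called (median log2 fold change -0.02), with HSD17B10 (137 FPKM), HSD17B12 (19.9 FPKM) and NR3C1 (11.2 FPKM) the highest. Of 12 genes of prostaglandin metabolism 0 were called (median 0.17), with PTGR1 (148 FPKM), PTGES3 (111 FPKM) and PTGES (109 FPKM) the highest. Of 13 genes of retinoid metabolism, where AKR1B10 acts, 0 were called (median 0.10). CYP26B1, named after its values were seen, was the 1 of them with all APEX1-OE libraries below all Ctrl libraries in CPM. This held for 2.01% of all genes tested, and the log2 fold change of CYP26B1 was -0.19 (SE 0.21). ALDH1A1, which makes retinoic acid, was the highest of the retinoid genes at 1278 FPKM. It ranged from 686 to 1957 FPKM over the libraries, followed by DHRS3 and STRA6 (29.9 FPKM). In every one of these lists 0 genes had an unadjusted p under 0.05 in the fit with the condition only. With the library side as a term 0 were called, and genes at an unadjusted p under 0.05 included DCXR and DHRS2 (carbonyl reductases, higher), DCXR (polyol and glucuronate, higher), HSD3B7 and HSD11B2 (steroid, higher), PTGES2 (prostaglandin, higher), PTGR1 (prostaglandin, lower) and RDH10 (retinoid, lower). Over all genes tested, 8.61% were higher and 3.02% lower by that rule. Of these genes all but DCXR and PTGR1 are named after their values were seen.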

How the data were processed

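A549 cells with the APEX1 plasmid (3 libraries) or the control plasmid (3 libraries) were grouped by the sample titles. The libraries were made with a stranded mRNA kit and sequenced as paired reads of 150 bases. Reads holding over 2 N bases were dropped by the authors, who trimmed the others with the FASTX-Toolkit 0.0.13, removed those under 16 bases and used TopHat2 on GRCh38 with up to 4 mismatches. Only reads with a unique position entered the deposited gene counts, which are not normalized, and the deposited FPKM, rounded to 2 decimals. The sources used here do not name the counting tool, its annotation or its use of strand.

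Counts were tested in R 4.3.3 with edgeR 4.0.16: filterByExpr defaults (minimum count 10, minimum total 15), TMM factors, robust quasi-likelihood F-test, all 6 libraries, the condition as the only term, and Benjamini-Hochberg adjustment over 16971 genes at 0.05. Counts of 16768 genes were also simulated for 3 against 3 libraries, without a library side and with the same set spread between replicates for every gene. There it called 98 of 98 genes at log2 changes of 2 in either direction and 92 of 99 at changes of 1, besides 13 unchanged genes. The real libraries differ in both respects, so these shares do not tell which size of change could be found in them. FPKM of neighbouring members were compared on log2(FPKM + 0.1) by exact sign-flip permutation tests. The library side, from the sign of the first principal component of log2 CPM, was an added term in another fit. Alternatives were DESeq2 1.42.0, limma 3.58.1 on log2 FPKM, other factors and filters, each library left out, and the replicate number as a block. GENCODE release 44 on GRCh38 gave coordinates, GC content and exon lengths, with gene identifiers matched without their version, and a GC value was available for 98.7% of the tested genes. Promoters came from RefSeq and were aligned with MAFFT 7.526. Total counts were 28131955 to 41009197 per library, so that counting error is small for all members but AKR7A3.

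The members and gene lists were chosen with earlier results of these data known. Named genes were the 8 members, the other AKR1, AKR7 and KCNAB genes, APEX1, NFE2L2, KEAP1, BACH1, MAFG, the 3 genes of highest mean FPKM in each list, and the 3 genes nearest in pattern to AKR1C1 and AKR1B10. ADH7, HSD17B2 and HPGDS of the lists were not found in the count table used here. Splicing data were not analysed here.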

Additional observations from a re-analysis of the deposited data

How the results depend on the processing

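No member was called under DESeq2, RLE factors, library totals, either other filter on low counts, limma on log2(FPKM + 1) or log2(FPKM + 0.1), the replicate block, the library side as a term, or with any library left out of the fit with the condition only. AKR1B10, AKR1C1, AKR1C2 and AKR1C3 kept a log2 fold change below 0 in all of these, from -0.48 to -0.19, -0.35 to -0.04, -0.29 to -0.16 and -0.26 to -0.15. With the library side as a term AKR1A1, AKR1B1 and AKR7A2 turned to 0.075, 0.10 and 0.098. With 1 library left out AKR1B1 lay between -0.18 and 0.0353, above 0 without APEX1-OE replicate 2 (0.0259) or 3 (0.0093) and without Ctrl replicate 1 (0.0353) or 2 (0.0194). AKR7A2 lay between -0.39 and 0.00098, with the upper value without APEX1-OE replicate 2. The cause was not tested.

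Over all genes, 1 was called, against 10 without a filter on low counts, 2 with the replicate block, 4 with the library side as a term (APEX1, JUN, GREM1 and IFNL3, the last 3 named after their values were seen), and 0 to 1 with a library left out. Between libraries of the same replicate number, the correlation of deviations from the group means was 0.61 for number 1, -0.52 for number 2 and 0.70 for number 3. Both libraries numbered 1 lie on side A and both numbered 3 on side B, while those numbered 2 lie on different sides. These values do not tell whether libraries of the same number were handled together. With 5 libraries the exact test of neighbours cannot go below 0.0625, so 0 of the 7 pairs passed with any library left out, which says nothing about stability. AKR7A3, without the filter, had a log2 fold change of -0.80 (SE 0.55, edgeR adjusted p = 1.0), and its 5 to 17 counts per library limit it.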

Other observations

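The 8 members together made up 1.21%, 1.21% and 1.39% of the library total with the APEX1 plasmid and 1.42%, 1.39% and 1.34% with the control plasmid, in the order of the replicate numbers. AKR1C1, AKR1C2 and AKR1C3 together were 32.6%, 36.6% and 40.4% of the members' counts in APEX1-OE and 36.3%, 36.6% and 41.7% in Ctrl. AKR7A2 had 357 to 390 counts for every 1000 counts of AKR1A1 in the 6 libraries, a ratio that varied less than the level of either gene. AKR1C3 had 0.638 to 0.721 counts per AKR1C2 count.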
